A study of Mus musculus with 6 samples.

Results

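The glucocorticoid receptor, Nr3c1, and 8 genes of its hormone pathway were followed in tumour stroma of Pdia4 knockout and wild-type mice. The members were the probe sets whose array annotation gave 1 of these 9 symbols as the sole gene, which made 28 of 45101 probe sets and 9 of 18194 annotated genes. There were 3 arrays of stroma from male Pdia4-/- (KO) mice and 3 from male wild-type (WT) mice, all B6 and all bearing a subcutaneous tumour for 4 weeks. The labels number the replicates but do not say whether each is a separate mouse or a pool. The growth protocol names the LLC tumour line and the series design names GK1, and nothing in the labels decides between them. The product of Pdia4 is an enzyme of the endoplasmic reticulum that forms and rearranges disulphide bonds. The labels do not give the genotype of the tumour cells, the age of the mice, the hour of collection, any steroid treatment or how far stroma was separated from tumour cells.

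The receptor waits in the cytosol in a complex built on the chaperone Hsp90 and, once it binds corticosterone in the mouse, moves to the nucleus, where it raises one set of genes and restrains many inflammatory ones. Hsd11b1 regenerates active corticosterone from its inert form inside cells. Among the genes the receptor raises, Fkbp5 encodes a co-chaperone that lowers the receptor's affinity for hormone, and Tsc22d3 encodes GILZ, a leucine zipper protein that restrains inflammatory transcription factors. In tumour stroma, restraint of inflammatory cytokine genes in myeloid cells and fibroblasts is among the roles described for this hormone axis.

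Upstream sequences of the members were searched for the sequence the receptor dimer binds, and for a clock-type motif, and 4 windows are shown: the 1 of Sgk1 that held the full palindrome and those of Tsc22d3, Fkbp5 and Per1 that held any searched motif. RefSeq windows of 250 bases before an annotated start (GRCm38.p6) matched 7 of the 9 genes, in 16 windows. Nr3c1 and Zbtb16 had no entry. The palindrome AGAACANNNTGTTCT lay in 3 of 32851 such windows of all genes (0.00913%), and 1 of those 3 was a start of Sgk1, where it read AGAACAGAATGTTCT from 189 bases before the start. Its single hexamer AGAACA, on either strand, lay in 16.1% of all windows and in 4 of the 16 member windows, 3 of Sgk1 and 1 of Tsc22d3. The other 2 Sgk1 windows with a hexamer, 195 and 13 bases before their starts, are not shown. The E-box CACGTG, bound by clock and other factors, lay in 6.02% of all windows and in 3 of the 16, 1 each of Fkbp5, Per1 and Sgk1. Capitals mark these motifs, and in the Sgk1 window the E-box at the far end overlaps a hexamer. The windows run 5′ to 3′ on the gene's strand and end at the base before the start.
Sgk1, chr10:21993640-21993889, plus strand: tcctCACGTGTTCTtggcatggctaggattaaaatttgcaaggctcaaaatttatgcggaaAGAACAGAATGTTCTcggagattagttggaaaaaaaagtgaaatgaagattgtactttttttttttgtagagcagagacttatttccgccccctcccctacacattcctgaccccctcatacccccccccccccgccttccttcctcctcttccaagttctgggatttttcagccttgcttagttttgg
Tsc22d3, chrX:140600523-140600772, minus strand: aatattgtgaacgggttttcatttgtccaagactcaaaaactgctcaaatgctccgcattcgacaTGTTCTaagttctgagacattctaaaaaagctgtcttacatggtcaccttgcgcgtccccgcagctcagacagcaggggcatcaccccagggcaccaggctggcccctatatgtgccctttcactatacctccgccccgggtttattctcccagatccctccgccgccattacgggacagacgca
Fkbp5, chr17:28486150-28486399, minus strand: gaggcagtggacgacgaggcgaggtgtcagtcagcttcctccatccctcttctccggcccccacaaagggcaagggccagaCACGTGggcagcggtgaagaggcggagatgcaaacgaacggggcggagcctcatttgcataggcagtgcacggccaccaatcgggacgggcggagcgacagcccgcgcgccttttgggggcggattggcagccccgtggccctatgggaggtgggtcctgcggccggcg
Per1, chr11:69098699-69098948, plus strand: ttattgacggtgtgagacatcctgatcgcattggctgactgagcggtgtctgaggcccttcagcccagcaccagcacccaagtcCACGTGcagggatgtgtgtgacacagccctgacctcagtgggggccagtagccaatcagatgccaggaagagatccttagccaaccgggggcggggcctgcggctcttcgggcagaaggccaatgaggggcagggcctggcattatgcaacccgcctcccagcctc
A match is a description of letters in the window. The arrays measured no binding.

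Each array reported a signal, a linear intensity scaled by the authors so that the trimmed mean was 500 on every array, and a call of Present, Marginal or Absent. Testing required a Present call on 3 or more of the 6 arrays, which kept 21 of the 28 member probe sets and at least 1 for each of the 9 genes. Of the 7 left out, 6 were Present on no array. Each gene is described first by its brightest tested probe set, and levels of different probe sets cannot be set against each other. Present calls numbered 21202 to 22185 on an array. KO replicate 3, whose column names carry another run number than those of the other 5 arrays, lay at 105.2 on the first principal component of the tested probe sets, with KO replicates 1 and 2 both near 12 and the WT arrays at -51.0 to -37.1. The 3′ to 5′ ratio of the β-actin control was 1.51 to 1.99 on KO arrays and 1.66 to 4.26 on WT arrays. Pdia4 itself read 2324, 1521 and 1402 in KO stroma, against 3942, 2766 and 4104 in WT stroma, a log2 difference, KO minus WT, of -1.06 (SE 0.28). Its signal was lower on every KO array but was not lost, and where the probes lie relative to the deletion is not given in the sources used.

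The 9 genes were selected on what the KO and WT signals of these same arrays had already shown for the pathway, so their differences are descriptions and carry no test. limma called 0 of the 21 member probe sets at an adjusted p under 0.05, beside 0.0272% of all tested probe sets. The smallest adjusted p among them was 0.13. At an unadjusted p under 0.05 there were 7 of 21, beside 20.2%. In 7 of the 21 every KO array lay below every WT array, beside 17.1% of all tested probe sets, and in 1 every KO array lay above, beside 13.5%. Counted by brightest probe set, 4 genes lay apart as lower in KO, 1 as higher, and 4 overlapped, where 20.5% of all tested genes lay apart as lower and 12.7% as higher. In bulk stroma, fewer cells of a type and less RNA per cell cannot be told apart.

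The receptor's own transcript gave no single direction. On its brightest probe set, 1460303_at, Nr3c1 read 1324, 1255 and 1331 in KO stroma, against 1487, 1467 and 1504 in WT stroma. The 3 KO arrays were all under the 3 WT arrays, but the gap was small, with a log2 difference of -0.19 (SE 0.18), and the groups overlapped under each of the 3 other scalings. Probe set 1421867_at read 1327, 842 and 2466 in KO stroma, against 807, 933 and 975 in WT stroma. Here the groups overlapped and KO replicate 3 stood highest, so that the log2 difference of 0.64 (SE 0.38) was 0.23 without that array. The dimmer 1421866_at followed the same shape, with a log2 difference of 0.58 (SE 0.50) that was 0.05 without KO replicate 3, and 1457635_s_at had -0.26 (SE 0.24). The 4 tested receptor probe sets were thus split, with 2 lower and 2 higher in KO.

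Hsd11b1, which supplies the receptor with active hormone, had higher mean signal in KO stroma. It read 1197, 2181 and 2848 in KO stroma, against 618, 543 and 1211 in WT stroma. The groups overlapped by a narrow margin, since KO replicate 1 fell just under WT replicate 3. The means were 2075 ± 830.3 in KO stroma and 791 ± 366 in WT stroma (SD, n = 3 each), a log2 difference of 1.40 (SE 0.42), or 2.64-fold. Leaving out single arrays gave 1.13 to 1.75.

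Fkbp5, the co-chaperone used widely as a readout of receptor activity, was lower in KO stroma on both tested probe sets. Probe set 1416125_at read 1599, 1547 and 1758 in KO stroma, against 3867, 3549 and 3131.5 in WT stroma. The groups lay well apart, with the highest KO array under every WT array by a wide margin, and the replicates of each genotype lay close together. The means were 1635 ± 109.7 in KO stroma and 3516 ± 369 in WT stroma (SD, n = 3 each), so that KO held 46.6% of the WT level by means of log2 signals. The log2 difference was -1.10 (SE 0.19), and -1.18 to -1.03 with single arrays left out. The dimmer probe set 1448231_at read 119, 71.1 and 115 in KO stroma, against 151, 208 and 147 in WT stroma, with a log2 difference of -0.75 (SE 0.28). It was Absent on KO replicate 2, and again no arrays overlapped. The third Fkbp5 probe set was Absent on all 6 arrays.

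**Figure D1:**
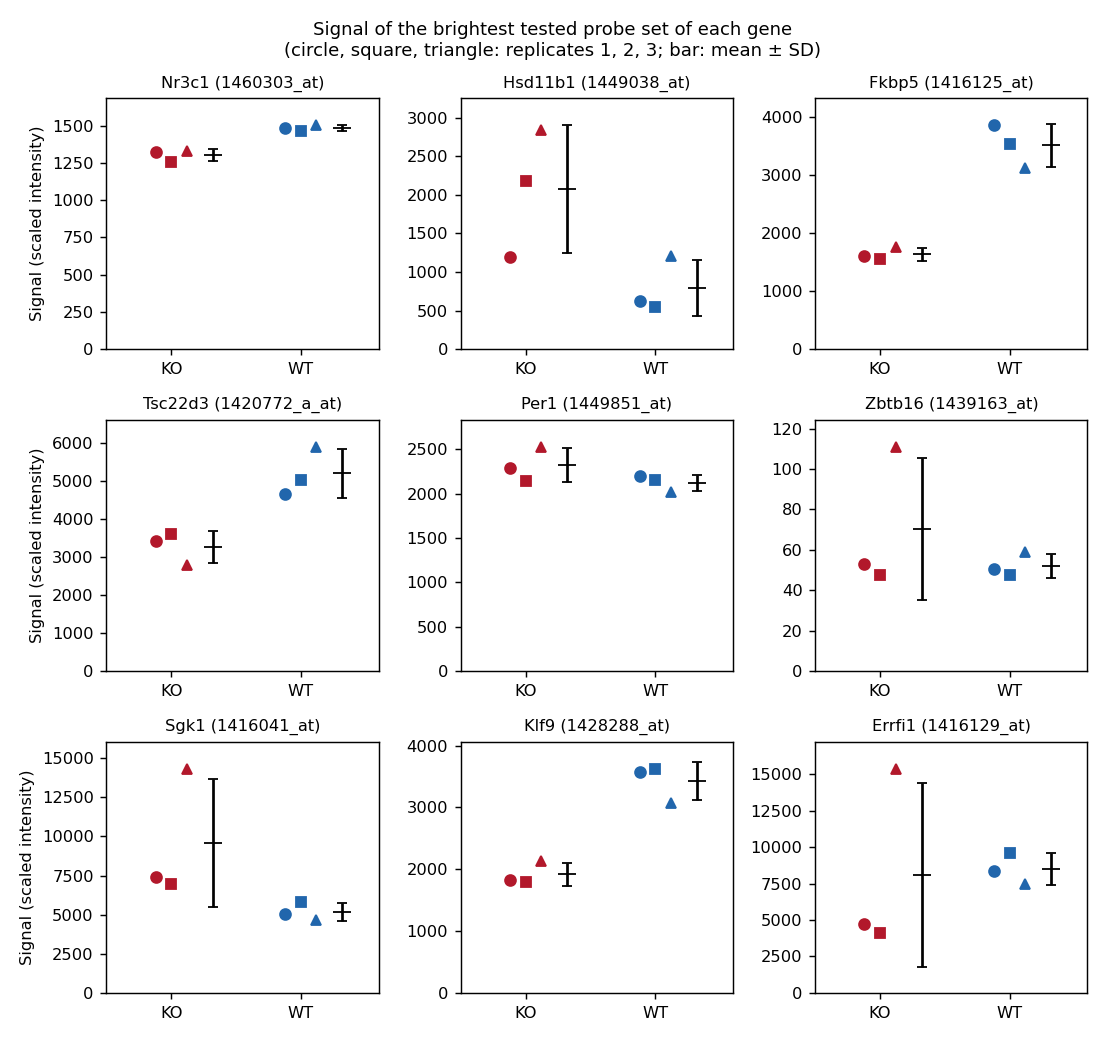
Signal (vertical axis, scaled intensity from 0) of the brightest tested probe set of each of the 9 genes on the 3 KO arrays (left) and the 3 WT arrays (right), with the mean ± SD of each group. Fkbp5, Klf9 and Tsc22d3 show KO arrays under WT arrays with a clear gap, and in Sgk1, Errfi1 and Zbtb16 KO replicate 3 (triangle) stands above the other KO arrays.

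Tsc22d3, the GILZ gene, differed between its probe sets. The brightest, 1420772_a_at, read 3415, 3593 and 2796 in KO stroma, against 4651, 5029.5 and 5884.5 in WT stroma. All KO arrays lay below all WT arrays, with a log2 difference of -0.67 (SE 0.21). The other 3 tested probe sets overlapped, with differences of 0.14 (SE 0.30) for 1425281_a_at, 0.04 (SE 0.22) for 1425557_x_at and -0.02 (SE 0.23) for 1444365_at. On this array type the ending _a_at marks probes shared by several transcripts of 1 gene and _x_at marks probes that can bind other transcripts. Averaged over the 4 probe sets the difference was -0.12.

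Klf9 encodes a Krüppel-like transcription factor that glucocorticoids induce in many tissues. All 5 of its tested probe sets had a lower mean log2 signal in KO, and 3 of them lay apart. Probe set 1428288_at read 1830 in KO replicate 1, 1799 in KO replicate 2 and 2134 in KO replicate 3, against 3569, 3624 and 3069 in WT stroma. Replicates agreed closely here, and the log2 difference was -0.83 (SE 0.20). Probe set 1428289_at read 817, 269 and 1148 in KO stroma, against 1546, 1745.5 and 1576.5 in WT stroma, a log2 difference of -1.36 (SE 0.50). Probe set 1456341_a_at read 2307.5, 971 and 2875 in KO stroma, against 3199, 3417 and 3041 in WT stroma, with -0.79 (SE 0.39). KO replicate 2 stood lowest on both of these, and without it the differences were -0.74 and -0.32. The dim 1436763_a_at and 1422264_s_at overlapped, with -0.36 (SE 0.38) and -0.18 (SE 0.54).

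Per1, a repressor of the circadian clock that the receptor also induces, did not separate the genotypes. It read 2297, 2144 and 2529 in KO stroma, against 2197, 2157 and 2021 in WT stroma. The 6 arrays stayed close together and overlapped, and the log2 difference was 0.13 (SE 0.19). Zbtb16, the PLZF transcription factor, was near the lower limit of detection. Its sole tested probe set read 52.8, 47.6 and 111 in KO stroma, against 50.3, 47.3 and 58.8 in WT stroma. The groups overlapped, and the log2 difference of 0.33 (SE 0.34) was -0.05 without KO replicate 3. Its other probe sets were Present on 0 of the 3 KO arrays, with 1 of them Present on 2 of the 3 WT arrays.

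Sgk1, the serum- and glucocorticoid-regulated kinase whose upstream window held the full palindrome, was, at the deposited scaling and with all 6 arrays, the 1 member whose KO arrays all lay above its WT arrays. It read 7436, 6986 and 14318 in KO stroma, against 5023, 5816 and 4680 in WT stroma. KO replicate 3 was far above the other KO arrays. The log2 difference was 0.81 (SE 0.31), and it was 0.48 without KO replicate 3.

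Errfi1 encodes MIG6, a feedback inhibitor of the EGF receptor that glucocorticoids induce, and it turned on KO replicate 3. Probe set 1416129_at read 4751, 4140 and 15362 in KO stroma, against 8390, 9614 and 7484 in WT stroma. KO replicates 1 and 2 lay below every WT array and KO replicate 3 lay above every one. The log2 difference was -0.33 (SE 0.48) with all arrays and -0.93 without KO replicate 3. The dimmer 1419816_s_at read 142, 217 and 889 in KO stroma, against 148, 381 and 160.0 in WT stroma, and its difference of 0.53 (SE 0.69) was -0.25 without that array.

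**Figure D2:**
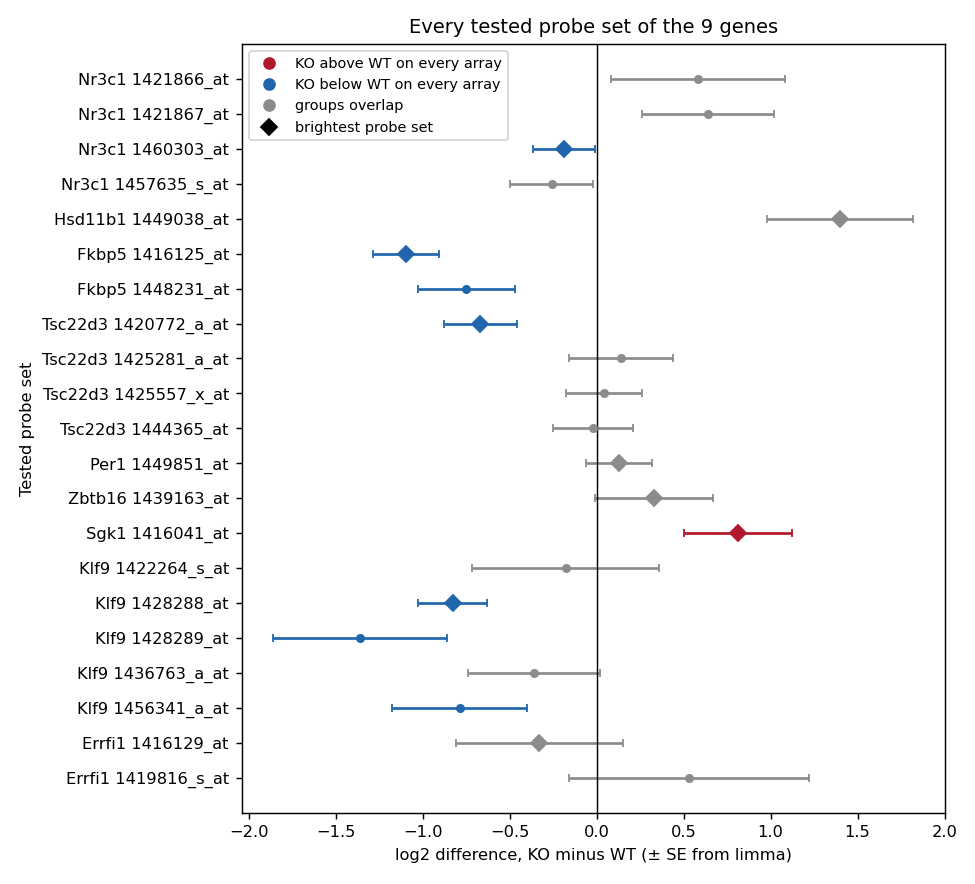
log2 difference, KO minus WT (horizontal axis), with its SE from limma, for each of the 21 tested probe sets of the 9 genes; diamonds mark the brightest probe set and colours whether the groups overlap. Both Fkbp5 and all 5 Klf9 probe sets lie left of 0, while those of Nr3c1, Tsc22d3 and Errfi1 fall on both sides.

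The array left out mattered for some of these genes and not for others. Over the 6 ways to leave out 1 array, the brightest probe sets of Fkbp5, Klf9 and Tsc22d3 kept differences of at most -0.56, and Hsd11b1 and Sgk1 at least 0.48. Zbtb16 and Errfi1 changed sign, Zbtb16 without KO replicate 3 and Errfi1 without KO replicate 2. Without KO replicate 3, 5 genes lay apart as lower and 1 as higher, with Errfi1 joining the lower ones, where 22.7% of all tested genes lay apart as lower and 15.0% as higher on those 5 arrays. Genes apart on all 6 arrays stay apart on any 5, so such counts cannot fall.

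**Figure D3:**
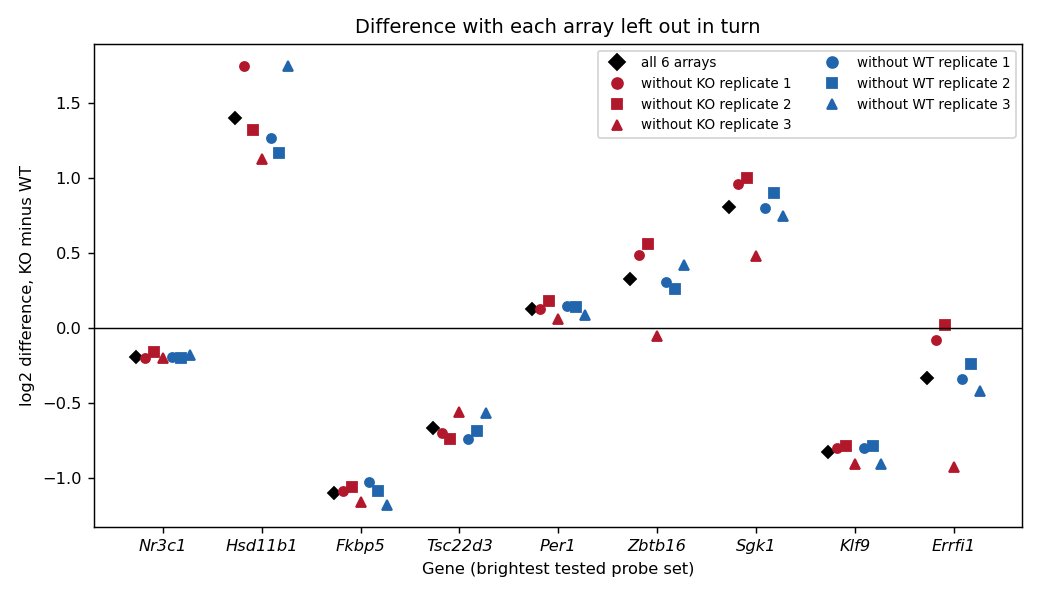
log2 difference, KO minus WT (vertical axis), of the brightest tested probe set of each gene with all 6 arrays (black diamond) and with each array left out in turn. Fkbp5, Tsc22d3 and Klf9 stay between -1.18 and -0.56, whereas Errfi1 moves from -0.33 to -0.93 without KO replicate 3.

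The genes whose pattern over the 6 arrays was most like that of Fkbp5 were Lyve1, Pam, Prg4, Alox15 and Hspa4l, by Pearson's r of log2 signals among 3274 genes with an SD of at least 0.5. Their r was 0.980 to 0.990, given as a description over 6 arrays that share the split by genotype. Lyve1 is a hyaluronan receptor of lymphatic vessels and some macrophages, Alox15 a lipoxygenase and Hspa4l a relative of the large heat shock proteins. Their log2 differences were -2.15, -2.74 and -1.05. In the same ranking Errfi1 came 1504th, Sgk1 2665th and Hsd11b1 3030th. The other 5 members, Nr3c1, Tsc22d3, Per1, Zbtb16 and Klf9, varied too little to be ranked. Of these, Klf9, Tsc22d3 and Nr3c1 lay apart as lower in KO, as Fkbp5 did, so the ranking leaves out members that fell with it.

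The chaperones listed for the receptor complex had lower mean log2 signals in KO stroma. Of 14 listed genes 11 were tested and all 11 had a negative difference, with a median of -0.62 beside -0.10 over all tested genes, 57.9% of which were negative. limma called 0 of the 11 and gave 6 an unadjusted p under 0.05, beside 0.0352% and 20.7% of all tested genes. In 7 of the 11 all KO arrays lay below all WT arrays, beside 20.5% of all tested genes. Stip1, which passes client proteins from Hsp70 to Hsp90, read 1664, 2064 and 1023.5 in KO stroma, against 2784, 3794.5 and 3063 in WT stroma, a log2 difference of -1.07 (SE 0.30). No KO array reached the WT range. Dnajb1, an Hsp70 co-chaperone, had -0.64 (SE 0.20), and Ahsa1, an activator of the Hsp90 ATPase, had -0.64 (SE 0.22). Hsp90aa1, the inducible Hsp90, had -0.62, and Fkbp4, which competes with Fkbp5 for the receptor complex, had -0.87; both were picked after their values were seen. Without KO replicate 3 the median was -0.49. The arrays do not show which client proteins these chaperones served, and the list was drawn up with earlier results of these arrays known.

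Coregulators and steroid handling showed less. Of 12 coregulators and related receptors 7 were tested, 4 lower and 3 higher in KO, with a median of -0.05. limma called 0 of them and 1 had an unadjusted p under 0.05, beside 20.7% of all tested genes, so the count was not above the background. The 1 gene was Med1, a Mediator subunit that contacts nuclear receptors, with -0.71 (SE 0.30) and -0.40 without KO replicate 3. Ncoa3, a coactivator, had 0.30 (SE 0.22) and Nrip1, a corepressor, -0.26 (SE 0.20). Of 10 symbols listed for steroid handling, by synthesis, inactivation or export, 4 were tested, with a median of -0.12. The list held H6pd also under its other symbol, H6pdh, which counts among those not tested. limma called 0 and 1 of the 4 had an unadjusted p under 0.05, again beside 20.7%. Abcb1a, an efflux pump that carries corticosteroids, read 435, 403 and 504 in KO stroma, against 293, 229.9 and 206 in WT stroma, with all KO arrays above all WT arrays and a difference of 0.89 (SE 0.22). Its paralogue Abcb1b had -0.19 (SE 0.42). Cyp11a1, the first enzyme of steroid synthesis, was Present on 2 of 3 KO and 1 of 3 WT arrays at signals of 18.6 to 40.8.

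Other genes known to be raised by glucocorticoids did not share one direction. Of 40 listed 31 were tested, 16 lower and 15 higher in KO, with a median of -0.02. limma called 0 and gave 6 an unadjusted p under 0.05, and the groups lay apart in 3 as higher and 5 as lower. All of these counts were near the shares of all tested genes, 20.7% for the unadjusted p, 12.7% for apart as higher and 20.5% for apart as lower. Il1r2, the decoy receptor for interleukin 1, read 5966, 8165 and 22549 in KO stroma, against 2846, 2538.5 and 2768 in WT stroma, a difference of 1.93 (SE 0.46) that was 1.36 without KO replicate 3. Il7r, the interleukin 7 receptor, had 1.48 (SE 0.45), or 0.98 without that array. In the other direction, Lpin1, a phosphatidate phosphatase, read 467, 395 and 200.9 in KO stroma, against 661, 594 and 711 in WT stroma, with -0.97 (SE 0.33) and -0.60 without KO replicate 3. The metallothioneins Mt2 and Mt1, picked after their values were seen, had -0.62 and -0.36 and lay apart as lower.

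Inflammatory genes known to be restrained by glucocorticoids had higher mean log2 signals in KO stroma. All 15 tested of 19 listed had a positive difference, with a median of 2.03, and in 14 the KO arrays all lay above the WT arrays. These counts hold Il1a, named here for its calls, which was Present on 3 of 3 KO and 0 of 3 WT arrays. It passed the filter only through its KO arrays, so its direction carries no weight. Over all tested genes 42.1% had a positive difference and 12.7% lay apart as higher. limma called 1, Ifng, interferon gamma, which rose by a log2 difference of 2.91 (SE 0.27) with an adjusted p of 0.0479, beside 0.0352% called over all tested genes. Ifng read 446, 503.5 and 546 in KO stroma, against 45.4, 76.5 and 82.3 in WT stroma, and was Absent on 1 WT array. The call rested close to the threshold: the adjusted p from limma was 0.0233 to 0.208 over the alternatives that tested it, and it was lost in each fit without 1 array, while the log2 difference in those fits stayed at 2.65 to 3.08. Mmp13, a collagenase, read 8741, 6527.5 and 28596 in KO stroma, against 1459, 1335 and 1066.5 in WT stroma, a difference of 3.21 (SE 0.52) or 2.57 without KO replicate 3. Il1b, interleukin 1 beta, had 1.66 (SE 0.35), or 1.25 without that array. The list's median was 1.39 without KO replicate 3, against 2.03 with it. These genes answer to many signals besides the hormone, and the list was drawn up with earlier results of these arrays known.

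**Figure D4:**
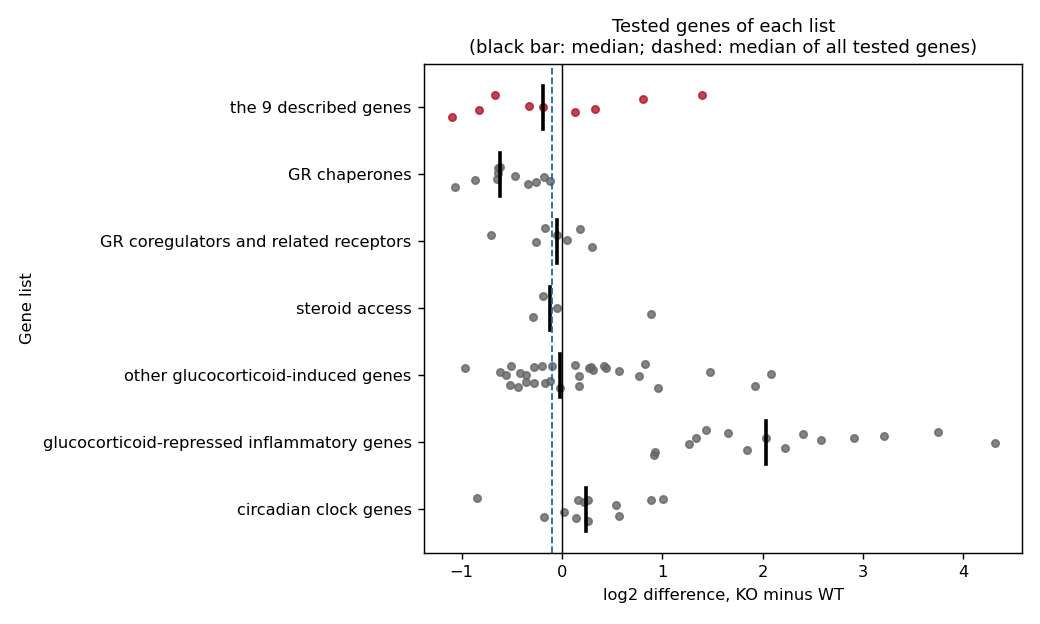
log2 difference, KO minus WT (horizontal axis), of each tested gene in the 9 described genes and in 6 lists of pathway genes, with the median of each list as a black bar and the median of all tested genes as a dashed line. All 11 chaperones lie below 0 and all 15 repressed inflammatory genes above it, while the other induced genes scatter on both sides.

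Clock genes were read beside Per1, since the hour of collection is not labelled. Of 18 listed symbols 12 were tested, 10 higher and 2 lower in KO, with a median of 0.24. The list held Arntl also under its other symbol, Bmal1, which counts among those not tested. limma called 0 and gave 2 an unadjusted p under 0.05. Of all tested genes 42.1% were higher and 20.7% had such a p, so the count of 2 was near the background. Arntl, the activator BMAL1, read 294, 376 and 224.5 in KO stroma, against 484, 537 and 562 in WT stroma, with all KO arrays lower and a difference of -0.85 (SE 0.24). Ciart, a repressor of that activator, had 0.89 (SE 0.30) and was 0.59 without KO replicate 3. Bhlhe40, another repressor, had 1.01 (SE 0.45) and 0.45 without that array. Whether collection hour moved with genotype was not tested.

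Markers of cell types also moved with genotype. All 10 macrophage and 9 fibroblast markers listed were tested, though a Present call does not show which cells carried the transcript. The summed signal of the macrophage markers was 163710 to 253941 on KO arrays and 147709 to 181856 on WT arrays, which overlapped. Of the 10 markers 9 were higher in KO, with a median log2 difference of 0.50 over the 10. In 5 of the 9 the groups lay apart, beside 12.7% of all tested genes. Fibroblast markers summed to 42968 to 57337 on KO arrays and 65727 to 67973 on WT arrays, with 5 of 9 lower in KO. In 4 of these 5 the groups lay apart as lower, beside 20.5% of all tested genes. Col1a1, Col1a2 and Thy1 lay apart the other way, with 1.70, 1.27 and 0.74. Such sums follow the brightest probe sets. Most of this one was Col3a1, at 26383 to 39391 on KO arrays and 42094 to 49992 on WT arrays. Of 10 epithelial markers 4 were tested, 3 of them lower in KO, and their sum was 2274 to 6533 on KO arrays and 11596 to 15432 on WT arrays, while Krt1, Krt19 and Epcam were never Present. Adipocyte markers, read beside Hsd11b1, which adipose tissue expresses strongly, had 5 of 10 tested, all 5 higher in KO, and summed to 2741 to 3698 on KO arrays and 1985 to 2152 on WT arrays. Most of this sum was Fabp4 and Pnpla2, with means of 1410 and 1370 on KO arrays and 913 and 900 on WT arrays. Of their defining genes Cidec, Lep and Retn were never Present, and Adipoq was Present on 3 of 3 KO arrays, at signals of 23.4, 39.2 and 52.4, and on 0 of 3 WT arrays, at 30.4, 19.1 and 21.9. Adipoq was thus tested only through KO, and its direction in the count of 5 carries no weight. Of 10 skeletal muscle markers 6 were never Present and 1 was tested, at sums of 139 to 189 on KO arrays and 166 to 208 on WT arrays. Sums for T cells were 6813 to 8655 on KO arrays and 1985 to 4984 on WT arrays, with Cd4 never Present, and for neutrophils 162499 to 220200 on KO arrays and 71974 to 278442 on WT arrays. All 6 tested T cell markers and all 8 neutrophil markers were higher in KO, with median differences of 1.54 and 1.40, beside the inflammatory genes above. The groups lay apart in 4 of the T cell and 2 of the neutrophil markers, beside 12.7% of all tested genes. WT replicate 3 was the highest of the 6 arrays for S100a8, S100a9, Ngp and Camp. Ngp read 51534.5 there, against 1154 and 1055 on the other WT arrays. Cxcr2, Present on 3 of 3 KO and 0 of 3 WT arrays, was tested only through KO. Endothelial markers summed to 1385 to 1835 on KO arrays and 808 to 1014 on WT arrays, and mast cell markers to 8706 to 13107 on KO arrays and 4182 to 5628 on WT arrays. The endothelial Pecam1 and Sox18 were each Present on 3 of 3 KO and 0 of 3 WT arrays, and so were tested only through KO. Pericyte or smooth muscle markers summed to 1528 to 1675 on KO arrays and 1286 to 1780 on WT arrays, with Cspg4, Myh11 and Des never Present. The tested ones lay apart in opposite directions, Rgs5 with -1.21 and Mcam and Acta2 with 0.69 and 0.39. The part of these cell types, and of RNA quality, in the members' differences was not tested.

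The authors' deposited table of signed folds held 3 of the member probe sets among its 1554. In the authors' deposited table Fkbp5 1416125_at had a signed fold of 3.30, Klf9 1428289_at 3.34 and Tsc22d3 1420772_a_at 2.44. The authors' deposited table names no groups, but all 1488 of its positive folds fell on probe sets with lower log2 means in KO in the array files, and all 66 negative ones on probe sets with higher means. A positive sign in the authors' deposited table thus runs opposite to the KO minus WT differences given here. From the array signals the WT over KO folds of the same probe sets were 2.15 for Fkbp5, 2.56 for Klf9 and 1.59 for Tsc22d3.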

How the data were processed

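RNA of 6 stroma samples was extracted with Trizol, labelled with biotin and hybridised to 1 Mouse430_2 array each, per the labels' protocols and the file headers. The authors deposited for each array the signal intensity on a linear scale and the detection call of every probe set. Per the expression report deposited for 1 array, signals came from the Statistical algorithm with a target value of 500 and calls from alpha1 0.05, alpha2 0.065 and tau 0.015. The authors' value table equalled the array files in 270606 of 270606 cells. A table of signed folds, a score with no computation stated in the labels or headers, was also deposited.

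Signals were already scaled, so their log2 was used without an offset. After removal of 64 control probe sets, 22063 probe sets Present on at least 3 arrays were tested (11357 genes). The platform annotation gave 34958 probe sets 1 symbol, 932 several and 9211 none; 34754 matched GRCm38.p6 RefSeq genes by Entrez ID and 0 symbols changed. limma (version 3.58.1, R version 4.3.3) gave the two-sided KO minus WT contrast, with no covariates and Benjamini-Hochberg adjustment over all tested probe sets. Tables used Python 3.11.15. A gene's brightest tested probe set over the 6 arrays stood for it. Named genes are all members, the 3 of smallest p and any called gene of each pathway list, and the 5 most like Fkbp5; others are said to be so. The members and lists were chosen with earlier results of these data known. The labels do not say that the replicates are separate mice, so the p-values speak for the spread among these 6 arrays, which may be technical, and the number of arrays limits the precision. Alternatives were 3 other scalings, 2 filters, an offset of 50, a replicate block, limma's array weights, robust eBayes moderation with a trend, averaging the probe sets of a gene and leaving out each array.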

Additional observations from a re-analysis of the deposited data

How the results depend on the processing

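Over the whole array limma called 6 probe sets, 5 higher and 1 lower in KO. It called 1 with 75th percentile scaling (1 higher, 0 lower), 0 after quantile normalization, 0 without a filter on Present calls, 0 with Present calls on all 6 arrays, 19 with array weights, 27 with trend and robust moderation and 24 with log2(signal + 50). Leaving out single arrays gave 0 to 2. With the replicate number as a block it called 0 probe sets over the whole array, 0 of the members and 0 genes of the pathway lists. The same-numbered KO and WT arrays had correlated deviations of 0.16, 0.03 and -0.10, so the numbers are not shown to pair the arrays. Member probe sets called stayed at 0 under every alternative run, with 4 to 9 at an unadjusted p under 0.05. The cause of these moves was not tested.

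The 1 call in the pathway lists, Ifng, became 0 calls with 75th percentile scaling, quantile normalization, no filter and Present on all 6 arrays, and 0 to 0 without single arrays. Its log2 difference stayed at 2.23 to 3.08 over the alternatives that tested it, and the filter for Present on all 6 arrays left it out of the test. These list alternatives were chosen after seeing the data. The 5 member genes with groups apart became 2 when all tested probe sets of a gene were averaged. Leaving out single arrays gave 5 to 6, but groups apart on all 6 arrays stay apart on any 5, so this count could not fall. The share of all tested probe sets lying apart was 30.6% with all 6 arrays and 35.4% to 44% without single arrays. The split of 4 lower and 1 higher became 3 lower and 2 higher with 75th percentile scaling and quantile normalization, where Nr3c1 overlapped and Hsd11b1 lay apart as higher, and 3 lower and 1 higher after cyclic loess, where Nr3c1 overlapped. Of 144 recomputed member differences, 138 moved by less than the spread between replicates. Part of them could not move. The 2 filters, the replicate block and the robust moderation with a trend leave a member's difference as it is. Averaging does so too for Hsd11b1, Per1, Zbtb16 and Sgk1, with 1 tested probe set each. The count is thus no measure of stability. The sign turned in 4, for Nr3c1 (0.19) and Errfi1 (0.10) with averaged probe sets, for Zbtb16 (-0.05) without KO replicate 3 and for Errfi1 (0.02) without KO replicate 2. Fkbp5 ranged from -1.18 to -0.93, Klf9 from -0.91 to -0.70, Tsc22d3 from -0.74 to -0.12, Sgk1 from 0.48 to 1.00 and Hsd11b1 from 1.00 to 1.75. The list medians of coregulators, steroid handling and other induced genes changed sign under 4, 3 and 7 of 15 alternatives, and those of chaperones, repressed inflammatory genes and clock genes under 0. Among the 15, the replicate block, the moderation and the lack of a filter could not change a median.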
